A study of Macaca fascicularis with 5 samples.

Results

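The genes described here are those of the heterotrimeric G protein subunits and of the regulators of G protein signaling (RGS proteins). They were taken from a list of 43 gene symbols: 11 alpha subunits, 5 beta subunits, 10 gamma subunits and 17 RGS proteins. The list was drawn up by name and not by any measured value, and GNAL and RGS9 are not on it. Of the 43 symbols, 39 had rows in the deposited table, with 101 of its 62655 transcripts, and the counts of these rows were summed per symbol. The table holds 20576 gene symbols in all.

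A heterotrimeric G protein carries the signal of a receptor on the cell surface into the cell. The active receptor loads the alpha subunit with GTP, the alpha subunit and the paired beta and gamma subunits then act on enzymes and ion channels, and an RGS protein speeds up the hydrolysis of GTP that ends the signal. The class of the alpha subunit sets the target: Gs stimulates and Gi inhibits adenylyl cyclase, and Gq activates phospholipase C beta. In the dorsal lateral geniculate nucleus (dLGN), the thalamic relay from the retina to the visual cortex, receptors for acetylcholine, noradrenaline, serotonin, dopamine and glutamate signal through these proteins.

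RNA sequencing was done on the dLGN of 5 cynomolgus monkeys, with 1 library per animal and an age of 3 months by the labels. The libraries of the 3 untreated control animals bear the titles Control-331, Control-317 and Control-307. Control values are given in rising order of these numbers. Values of the 2 deprived animals are given in the order Deprivated-316, Deprivated-326. In these the left eye had been sutured from the age of 1 month to 3 months, and the dLGN on the same side was used, since the RNA of the other side was of low quality. The titles name the left dLGN for both deprived libraries and Control-317 and the right dLGN for the 2 other control libraries (the right-titled control libraries below). Against this, each control description states a mix of left and right. Strain, sex and genotype are not given in the sources used here, and the labels and the study's methods do not give the same age at collection. Group membership here follows the labels. The count means in the study's tables follow a division with Control-317 and Deprivated-316 exchanged between the groups, and which division holds was not settled.

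Total estimated counts ran from 7391844 to 12966019 per library, and the members took between 0.306% and 0.397% of them. Among the control libraries, Control-317 stood apart. The summed level of 12 markers of striatal projection neurons was 3754 and 3790 CPM (counts scaled to a common normalized library total) in the right-titled control libraries, 352 in Control-317, and 1149 and 893 in the deprived libraries. Markers of thalamic relay neurons (10 genes) summed to 183 and 310 CPM in the right-titled libraries, 2139 in Control-317, and 574 and 1186 in the deprived libraries. Markers of cortical and hippocampal excitatory neurons (10 genes) summed to 21.5, 195 and 31.7 CPM in the control libraries. NRN1 alone gave 190 CPM of the sum in Control-317. In the deprived libraries the sum of these markers was 552 and 325 CPM, above every control library. No marker of these lists was at 0 throughout. SLC17A6, a vesicular glutamate transporter of relay neurons, was at 16.5 and 68.6 CPM in the right-titled control libraries and 680 in Control-317. In the deprived libraries it was at 134 and 410 CPM. This relay neuron marker was thus low in the right-titled libraries, but PRKCD, on the same list, had the reverse order. PRKCD was at 51.5 and 50.7 CPM in the right-titled libraries, 10.1 in Control-317, and 37.3 and 15.3 in the deprived libraries. Most fold changes below are therefore given with and without Control-317. The side named in the titles and the treatment cannot be told apart once that library is left out, and in bulk tissue fewer cells of a type cannot be told apart from less RNA per cell.

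The first question was which subunits these libraries held. Levels of different genes were set side by side as FPKM, a read density per transcript length and library size, summed over the variants of a gene. Among the alpha subunits with rows under their own symbols (Gs had none), GNAO1, which encodes the Go protein of neurons, led with 81.9, 42.9 and 76.5 FPKM in the control and 87.5 and 69.1 FPKM in the deprived libraries. In Control-317 it was second to GNA12, a G12 subunit, whose FPKM level was 48.8, 67.0 and 48.2 in the control and 30.2 and 36.5 in the deprived libraries. GNAZ, a Gi-class subunit that pertussis toxin does not modify, was the third by mean at 29.3, 29.5 and 29.0 FPKM in the control and 37.3 and 31.2 FPKM in the deprived libraries. GNAZ and GNAQ had mean FPKM of 31.3 and 30.2 with SDs of 3.47 and 5.07 over the 5 libraries, so their order did not exceed that spread.

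The other alpha subunits followed in the order GNAI2, GNAI1, GNA11, GNA13 and GNAI3, with mean FPKM from 26.2 down to 6.80. At the end stood GNA14, a Gq-class subunit, with between 0 and 0.31 FPKM. The sum over these alpha subunits, Gs not included, ranged from 245 to 276 FPKM per library.

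Among the beta subunits GNB5, the atypical one that pairs with RGS proteins of the R7 class in place of a gamma subunit, had 42.0, 28.8 and 51.2 FPKM in the control and 35.8 and 28.6 FPKM in the deprived libraries. It was the highest beta subunit in every library but Control-317. There GNB1 stood at 114 FPKM, against 15.9 and 12.5 FPKM in the other control libraries and 9.53 and 9.78 FPKM in the deprived libraries. GNB4 was the third by mean at 5.56, 11.2 and 8.67 FPKM in the control and 14.0 and 5.79 FPKM in the deprived libraries, and GNB2 had a mean of 4.29 FPKM.

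GNB3, the beta subunit of cone photoreceptors, was at 0 in Control-307, Control-317 and Deprivated-316. Nearly all of its counts came from Control-331, with 159 estimated counts, and Deprivated-326 had 14.3. A count of 0 allows up to 3 counts, which is 0.231 to 0.406 CPM of the unscaled library totals. This limit covers counting error only.

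The gamma subunits did not keep one order. GNG3, a subunit found mainly in neurons, had 26.2, 25.1 and 28.0 FPKM in the control and 63.4 and 54.0 FPKM in the deprived libraries. GNG10 had 40.2, 7.12 and 35.1 FPKM in the control and 16.0 and 22.8 FPKM in the deprived libraries, and GNG2 had 5.78, 35.3 and 13.1 FPKM against 30.2 and 28.1 FPKM. So GNG10 was the first gamma subunit in the right-titled control libraries, GNG2 in Control-317 and GNG3 in both deprived libraries. GNG12 and GNG11 were lower, with mean FPKM of 9.81 and 1.82.

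Among the RGS proteins the widest spread was in the gene with the highest mean. RGS14, which carries a GoLoco motif that holds inactive Gi besides its RGS domain, had 153, 5.29 and 109 FPKM in the control and 38.6 and 27.7 FPKM in the deprived libraries. RGS8, an R4-class protein that acts on Gi and Go, had 54.8, 105 and 58.2 FPKM in the control and 24.3 and 36.8 FPKM in the deprived libraries. RGS5, known for its expression in pericytes, had 33.4, 21.8 and 31.8 FPKM against 17.6 and 18.9 FPKM. RGS14 led in Control-307, Control-331 and Deprivated-316, and RGS8 in Control-317 and Deprivated-326.

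RGS2, which acts on Gq, followed with a mean of 24.0 FPKM, and RGS3 with 10.2 FPKM. The other 9 measured RGS genes had mean FPKM from 9.26 for RGS7 down to 0.496 for RGS20. Over all RGS genes the summed level was 327, 206 and 278 FPKM in the control libraries and 145 and 149 FPKM in the deprived libraries.

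**Figure D1:**
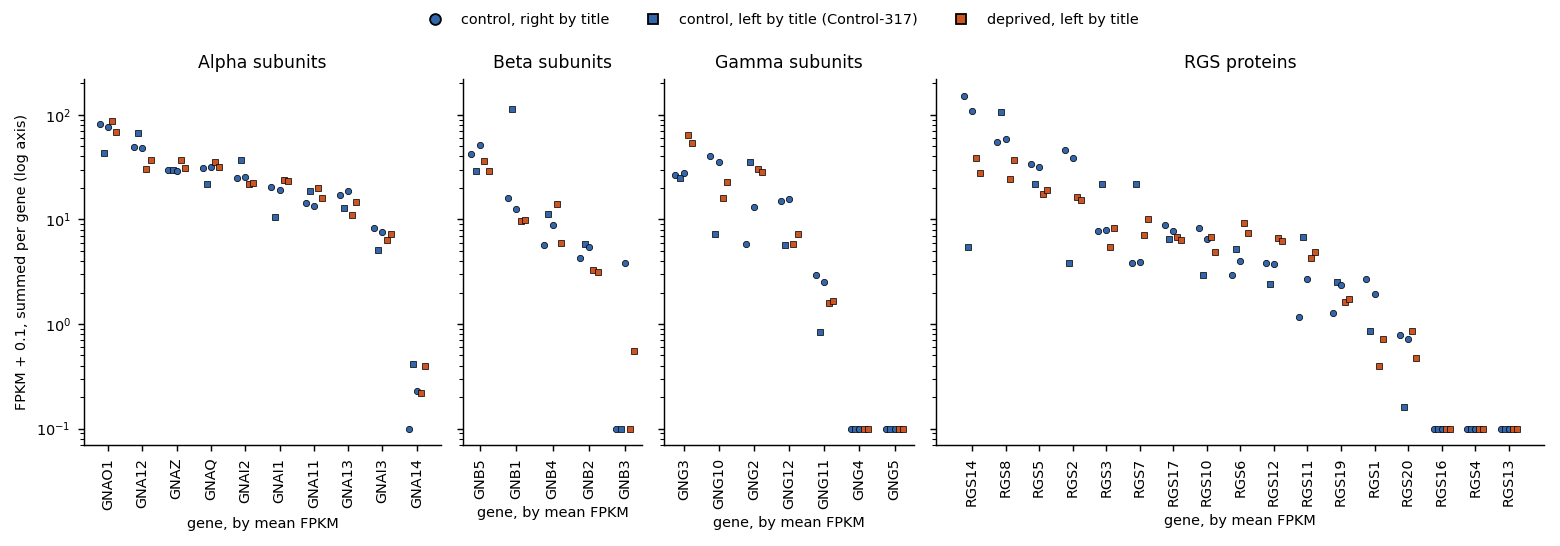
Level of each member gene per library, as FPKM summed per gene plus 0.1 on a log axis, with the genes of each family ordered by their mean; circles are right-titled and squares left-titled libraries, blue control and orange deprived. The alpha subunits other than GNA14 kept close together in the libraries, whereas RGS14 ranged from 5.29 to 153 FPKM and GNB1 reached 114 FPKM in Control-317 only.

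Some members gave no value. GNG4, GNG5, RGS4, RGS13 and RGS16 were listed at 0 in every library. RGS4 and RGS16 are R4-class proteins, RGS4 one known from cortical neurons, and RGS13 is known from B cells. Of all genes, 2798 of 20576 (13.6%) were listed at 0 throughout, and no expression is inferred for these 5. GNG7, GNG8 and GNG13 had no row under these symbols and are not analysed here. GNAS had none either, and a row under another symbol is described with the alpha subunits.

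The deprived libraries were compared with the control libraries for the 34 members with counts. All of them passed edgeR's filter on low counts, along with 14317 genes in total, and the test was edgeR's quasi-likelihood test with Benjamini-Hochberg adjustment over those genes. No member passed at an adjusted p of 0.05. No gene of the table did either (0%). The smallest adjusted p among the members was 0.270, for GNG3. At an unadjusted p under 0.05 there were 5 members, with GNG3 and RGS12 on the higher side in the deprived libraries and GNA12, GNB2 and RGS8 on the lower side, against 9.76% of all genes (5.69% higher and 4.07% lower). Of the 34, 15 had a positive and 19 a negative log2 fold change (44.9% of all genes were positive), and the median was -0.22 against -0.06 over all genes.

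Other tests on the same libraries called 1 member. GNG3 passed by edgeR's exact test, which called 1.59% of the genes, and by DESeq2, which called 2.21%. Without Control-317 the quasi-likelihood test called 8 members, and 10.1% of all genes. GNG3, RGS6, RGS7 and RGS12 were higher in the deprived libraries in that comparison (6.46% of all genes) and GNG12, RGS2, RGS5 and RGS14 were lower (3.68%). DESeq2 without Control-317 called 12 members and 15.1% of all genes, adding GNG2 on the higher side (9.5% of all genes) and GNA12, GNG10 and RGS8 on the lower side (5.56%).

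The control and deprived libraries did not overlap in log2 CPM for 14 members, 6 with the deprived libraries higher (GNAI1, GNAZ, GNAQ, GNG3, RGS6 and RGS12) and 8 with them lower (GNAI2, GNA12, GNB1, GNB2, RGS1, RGS3, RGS5 and RGS8). This was the case for 30.8% of all genes, 15.2% with the deprived libraries higher and 15.5% with them lower. A change of at least 1 on the log2 scale together with no overlap was seen for GNB1, GNG3, RGS1 and RGS8 (8.03% of all genes). The plot of fold changes gives all 34 values.

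**Figure D2:**
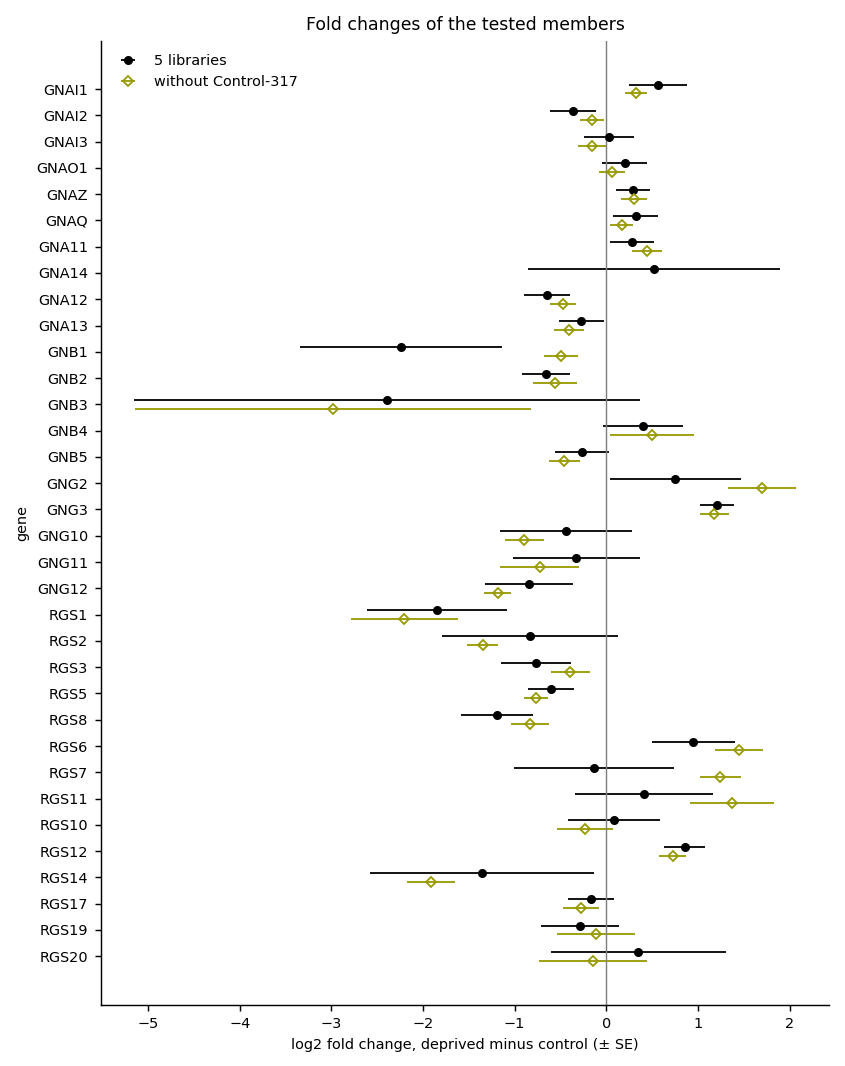
Log2 fold change of each of the 34 tested members, deprived minus control, with its standard error, from edgeR's quasi-likelihood fit on 5 libraries (black circles) and without Control-317 (open diamonds; GNA14 was under the filter there). GNG3 kept a value near 1.2 in both, whereas GNB1 went from -2.24 to -0.49 and RGS7 from -0.14 to 1.25.

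Alpha subunits came first. The Gi-class and Gq-class genes differed little between the groups with all libraries. Of these 8, 7 had a positive log2 fold change, from 0.03 for GNAI3 to 0.57 for GNAI1, and GNAI2 had -0.36. None of them had an unadjusted p under 0.05 there. Without Control-317 their smallest adjusted p was 0.136 by the quasi-likelihood test, for GNA11. In the left-titled libraries their values ran from -0.70 for GNAI2 to 1.23 for GNAI1. For GNAI1, GNAZ and GNAQ both deprived libraries were above all control libraries, and for GNAI2 both were below.

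GNA12 was the alpha subunit with the smallest p. It had 328, 447 and 313 CPM in the control and 212 and 251 CPM in the deprived libraries. Every control library was above both deprived ones, with Control-317 the highest. Its log2 fold change was -0.65 (SE 0.25, unadjusted p = 0.0450, adjusted p = 0.504 by the quasi-likelihood test), and without Control-317 it was -0.47 (adjusted p = 0.0894). GNA12 turned to 0.30 (adjusted p = 0.828) when Control-317 and Deprivated-316 were exchanged between the groups (the exchanged division). GNA13, the other member of its class, had a log2 fold change of -0.27 (adjusted p = 0.757 by the quasi-likelihood test), -0.41 without Control-317 (adjusted p = 0.165), and overlapping groups.

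The row of another symbol bears on GNAS, the Gs subunit. The symbol LOC102145630 carries a gene identifier that RefSeq's newer annotation names GNAS, and it was looked up after the values were seen, outside the rule for the members. Its 22 transcripts summed to 422, 743 and 504 CPM in the control and 867 and 858 CPM in the deprived libraries. Both deprived libraries were above all control libraries, and Control-317 was nearest to them. The log2 fold change was 0.63 (SE 0.30, adjusted p = 0.557 by the quasi-likelihood test) with all libraries and 0.90 without Control-317 (adjusted p = 0.0276). In the left-titled libraries the value for this row was 0.22. Its summed level was 180 to 356 FPKM, above that of GNAO1 in every library.

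Of the beta subunits with counts in every library, GNB1 had the largest difference, and 1 library made it. Its CPM were 74.4, 529 and 56.7 in the control libraries and 46.4 and 46.8 in the deprived libraries. All control libraries were above the deprived ones, and Control-317 was by far the highest, at 11.4 times the lowest library. The fitted log2 fold change of -2.24 (SE 1.11, adjusted p = 0.579 by the quasi-likelihood test) became -0.49 without Control-317 (adjusted p = 0.143).

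The excess lay in 1 variant. GNB1 variant X1 had 6063 estimated counts in Control-317, 91.7% of the gene's counts there, and 0 in the 4 other libraries. Variant X2 had between 343 and 719 counts in each library, 76.0, 44.3 and 57.6 CPM in the control and 46.2 and 46.2 CPM in the deprived libraries. For X2 alone the groups overlapped, and its log2 fold change was -0.36 (adjusted p = 0.982 by the quasi-likelihood test on transcripts). X1 was the only member transcript with counts in Control-317 alone.

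GNB2 was low throughout, at 12.5, 16.7 and 15.5 CPM in the control and 9.79 and 9.14 CPM in the deprived libraries. All control libraries lay above the deprived ones. The log2 difference was -0.66 (SE 0.26, adjusted p = 0.512 by the quasi-likelihood test) and -0.56 without Control-317 (adjusted p = 0.181). GNB4 and GNB5 had log2 fold changes of 0.40 and -0.27 with overlapping groups, and GNB5 was highest in the right-titled control libraries, at 185 and 218 CPM against 126 to 164 CPM in the other libraries. GNB3, with counts in 2 libraries only, had a fitted log2 fold change of -2.39 (SE 2.76, adjusted p = 0.822 by the quasi-likelihood test).

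GNG3 was the member with the smallest p of all. It had 40.6, 38.5 and 42.0 CPM in the control libraries and 102 and 85.3 CPM in the deprived libraries. The control libraries lay within a few CPM of each other, Control-317 included, and both deprived libraries were more than 2 times as high. The fold change was 2.32, which is 1.21 on the log2 scale (SE 0.19, unadjusted p = 0.000880). The adjusted p was 0.270 by the quasi-likelihood test, 0.00915 by edgeR's exact test and 1.0e-04 by DESeq2. Without Control-317 it rose by 1.18 on the log2 scale (adjusted p = 0.0215, quasi-likelihood test), and in the left-titled libraries alone the value was 1.29 (adjusted p = 0.0906, quasi-likelihood test, with Control-317 as the lone control and assumed to vary like the deprived pair). In the exchanged division GNG3 was at 0.011 (adjusted p = 0.996).

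Markers of cortical and hippocampal excitatory neurons moved the same way as GNG3. Of these 10 genes 9 were tested and all 9 had a positive log2 fold change, 7 with an unadjusted p under 0.05. Their summed level was 21.5, 195 and 31.7 CPM in the control and 552 and 325 CPM in the deprived libraries. Of the sum in Control-317, 190.2 CPM came from NRN1 alone, whose level was 159 and 134 CPM in the deprived libraries. The defining gene SLC17A7 was at 0, 0 and 2.39 CPM against 44.0 and 13.6 CPM. Their part in the GNG3 result was not tested.

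The values of GNG12 and GNG2, both widely expressed gamma subunits, turned on Control-317. GNG12 had 113, 41.9 and 115 CPM in the control and 45.2 and 54.6 CPM in the deprived libraries. Control-317 lay below the deprived libraries and the others far above. Its log2 fold change was -0.85 (SE 0.48, adjusted p = 0.603 by the quasi-likelihood test). Without Control-317 it fell by 1.19 on the log2 scale (adjusted p = 0.0210), and in the left-titled libraries the value was 0.26. GNG2 had the opposite order, 38.2, 231 and 83.7 CPM in the control and 208 and 189 CPM in the deprived libraries. Control-317 was the highest and the right-titled control libraries the lowest. Its log2 fold change was 0.75 (SE 0.72, adjusted p = 0.769 by the quasi-likelihood test), and 1.70 without Control-317 (adjusted p = 0.0508).

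GNG10 had 77.9, 13.7 and 65.6 CPM in the control and 32.2 and 45.0 CPM in the deprived libraries. The right-titled control libraries were on top, the deprived libraries between, and Control-317 lay lowest by more than 1 on the log2 scale. Both of its variants had this order of the 3 kinds of library. The log2 fold change was -0.44 (adjusted p = 0.888 by the quasi-likelihood test), -0.89 without Control-317 and 1.50 in the left-titled libraries. GNG2 and GNG10 were picked out after their values were seen.

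**Figure D3:**
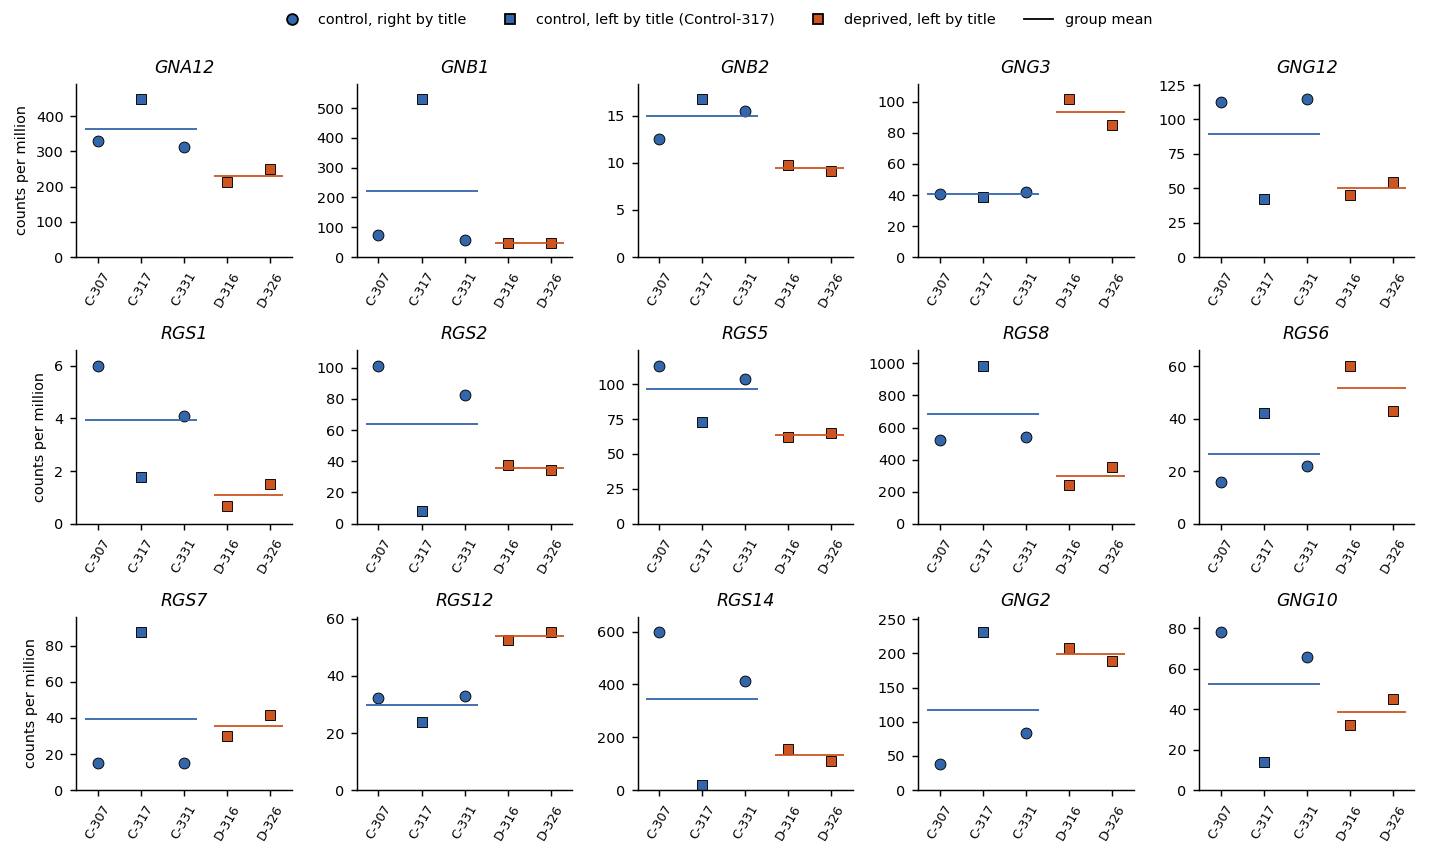
CPM of 15 members in each library, on linear axes from 0, with C for Control and D for Deprivated, circles for right-titled and squares for left-titled libraries, and lines at the group means. GNG3, RGS6 and RGS12 had both deprived libraries above every control library. Control-317 lay below every other library for RGS14, RGS2, GNG10, GNG12, GNG3 and RGS12. It lay above every other library for GNB1, RGS7, GNG2, GNA12, GNB2 and RGS8.

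RGS14 varied most among the members with counts in every library. It had 597, 20.5 and 412 CPM in the control and 157 and 111 CPM in the deprived libraries, and the highest library was 29.1 times the lowest. The right-titled control libraries were far above the deprived libraries, and these were in turn above Control-317. Because of this order the log2 fold change of -1.36 (SE 1.22, adjusted p = 0.756 by the quasi-likelihood test) covered differences of opposite sign. Without Control-317 RGS14 fell by 1.91 on the log2 scale (SE 0.26, adjusted p = 0.0230), while in the left-titled libraries alone the value was 2.71 in the other direction (SE 0.32, adjusted p = 0.0791, quasi-likelihood test).

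Of the 7 variants of RGS14, X5 held between 99.4% and 100% of the counts in each library. DRD1, the D1 dopamine receptor and a marker of striatal projection neurons, had the same order of the libraries, with 437, 40.9 and 375 CPM in the control and 124 and 98.1 CPM in the deprived libraries. On the striatal list, 11 of 12 genes had the right-titled libraries highest and Control-317 lowest. Their part in the RGS14 result was not tested.

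RGS2 had the same order. It had 101, 8.24 and 82.4 CPM in the control and 37.4 and 34.5 CPM in the deprived libraries. Control-317 was again below all others, by more than 1 on the log2 scale. In log2 terms the difference was -0.83 (SE 0.96, adjusted p = 0.823 by the quasi-likelihood test), RGS2 fell by 1.35 without Control-317 (adjusted p = 0.0210), and it was 2.13 in the left-titled libraries. Together with GNB5, GNG10, GNG11, GNG12 and RGS17, these 2 genes made 7 members with the right-titled control libraries highest and Control-317 lowest, which 12.4% of all genes shared. The reverse order was found for GNA14, GNG2, RGS7 and RGS11 (11.5% of all genes), and either order for 11 members (23.9% of all genes).

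RGS8 had 524, 985 and 538 CPM in the control and 242 and 356 CPM in the deprived libraries. Every control library was above both deprived ones, and Control-317 was the highest. The log2 fold change was -1.19 (SE 0.39, unadjusted p = 0.0259, adjusted p = 0.451 by the quasi-likelihood test), -0.83 without Control-317 (adjusted p = 0.0663, or 0.00167 by DESeq2) and -1.71 in the left-titled libraries (adjusted p = 0.0862, quasi-likelihood test). In the exchanged division it turned to 0.62 (adjusted p = 0.770).

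The mix of RGS8 variants differed between the libraries. Variant X3 held 41.5% and 48.7% of the gene's counts in the right-titled control libraries and 7.66% in Control-317, where X4 and X5 held 45.2% and 42.2%. In the deprived libraries X3 held 38.6% and 19.7%. None of the 6 variants had an unadjusted p under 0.05, and all 6 had a negative log2 fold change, from -1.42 for X5 to -0.04 for X6. StringTie divides reads between variants that share exons, so these shares are estimates.

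The other genes of the R4 class had negative log2 fold changes, none of which passed the test with all libraries. RGS5 had 113, 73.1 and 104 CPM in the control and 62.0 and 65.2 CPM in the deprived libraries. All control libraries were higher, Control-317 the least. Its log2 fold change was -0.60 (SE 0.25, adjusted p = 0.524 by the quasi-likelihood test), and without Control-317 RGS5 fell by 0.77 on the log2 scale (adjusted p = 0.0316). In the left-titled libraries the value was -0.19 (adjusted p = 0.566). Of 11 endothelial and mural cell markers, 10 had a negative log2 fold change, none was at 0 throughout, and their sum was 351, 366 and 350 CPM in the control against 257 and 280 CPM in the deprived libraries. Their part in the RGS5 result was not tested.

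RGS1, known from lymphocytes and from microglia, was low, with 6.002, 1.76 and 4.11 CPM in the control and 0.670 and 1.50 CPM in the deprived libraries. The groups did not overlap, but Control-317 was close to Deprivated-326. Its log2 fold change was -1.85 (SE 0.76, adjusted p = 0.522 by the quasi-likelihood test), and -2.20 without Control-317 (adjusted p = 0.0747). The 10 microglial markers, 9 of them with a negative value and none at 0 throughout, summed to 593, 453 and 561 CPM in the control and 394 and 400 CPM in the deprived libraries, and their part in the RGS1 result was not tested. With RGS3, at -0.77 (adjusted p = 0.579 by the quasi-likelihood test) and -0.39 without Control-317 (adjusted p = 0.265), all 5 measured R4 genes had a negative log2 fold change, with a median of -0.83 against -0.06 over all genes. In the exchanged division RGS3 and RGS8 had a positive value, and RGS2 had one in the left-titled libraries.

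In contrast to the R4 genes, the genes of the R7 class were lowest in the right-titled control libraries. RGS6 had 15.8, 42.2 and 22.0 CPM in the control and 60.2 and 43.0 CPM in the deprived libraries. Control-317 nearly reached Deprivated-326. RGS6 had a log2 fold change of 0.95 (SE 0.45, adjusted p = 0.560 by the quasi-likelihood test), and without Control-317 RGS6 rose by 1.45 on the log2 scale (adjusted p = 0.0349). In the left-titled libraries the value was 0.30 (adjusted p = 0.563).

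RGS7 had 15.1, 87.5 and 15.0 CPM in the control and 29.8 and 41.6 CPM in the deprived libraries. Here Control-317 was the highest, by more than 1 on the log2 scale, and the other control libraries were the lowest. For RGS7 the fit gave a log2 fold change of -0.14 (SE 0.87, adjusted p = 0.972 by the quasi-likelihood test), while without Control-317 RGS7 rose by 1.25 (adjusted p = 0.0342) and in the left-titled libraries the value was -1.29 (adjusted p = 0.104). RGS11 had this order too, with 2.69, 17.2 and 6.31 CPM in the control and 11.1 and 12.3 CPM in the deprived libraries. Without Control-317 its log2 fold change was 1.37 (adjusted p = 0.115).

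The sum of the relay neuron markers was likewise highest in Control-317 and lowest in the right-titled libraries. Of its 10 genes, 6 had this order with the deprived libraries between, and 1, PRKCD, had the reverse order. The part of these markers in the results for RGS7, RGS11 and GNG2 was not tested. The partner of the R7 proteins, GNB5, did not share their order, since it was lowest in Control-317. Of the proteins that anchor this complex to membranes, RGS7BP had 177, 104 and 181 CPM in the control and 136 and 133 CPM in the deprived libraries, and the orphan receptor GPR158 had 570, 220 and 564 CPM against 426 and 397 CPM. Both had the order of GNB5. The other anchors on the list did not: RGS9BP had 0.724, 10.4 and 3.63 CPM in the control and 0.402 and 1.77 CPM in the deprived libraries (log2 fold change -2.17, adjusted p = 0.622 by the quasi-likelihood test), and GPR179 had between 3.89 and 9.55 CPM. GPR158 was picked out after its values were seen.

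RGS12, a large R12-class protein with a GoLoco motif, had 32.4, 23.9 and 33.0 CPM in the control and 52.6 and 55.3 CPM in the deprived libraries. All control libraries were below both deprived ones. The fold change was 1.81, or 0.86 on the log2 scale (SE 0.22, unadjusted p = 0.0103, adjusted p = 0.389 by the quasi-likelihood test and 0.0999 by DESeq2). Without Control-317 RGS12 rose by 0.72 on the log2 scale (adjusted p = 0.0437, quasi-likelihood test), and in the left-titled libraries the value was 1.18 (adjusted p = 0.0964, quasi-likelihood test). In the exchanged division RGS12 was at 0.0082 (adjusted p = 0.996). The sum of the cortical and hippocampal markers was higher in the deprived libraries too, and their part in the RGS12 result was not tested.

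Variant X3 of RGS12 made up between 23.8% and 26.4% of the gene's counts in the control libraries and 55.6% and 40.6% in the deprived libraries. Its CPM were 8.78, 5.73 and 7.96 in the control and 29.1 and 22.1 in the deprived libraries. The groups were well apart, with a log2 fold change of 1.77 (SE 0.38, adjusted p = 0.549 by the quasi-likelihood test on transcripts and 0.00427 by DESeq2). Variant X2 did not differ this way, at 15.5, 17.1 and 18.8 CPM in the control and 3.20 and 21.0 CPM in the deprived libraries.

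The third R12 gene, RGS10, had a log2 fold change of 0.09 and overlapping groups. The RZ genes RGS17, RGS19 and RGS20 had log2 fold changes of -0.17, -0.28 and 0.35, with overlapping groups and adjusted p-values of at least 0.872 by the quasi-likelihood test.

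**Figure D4:**
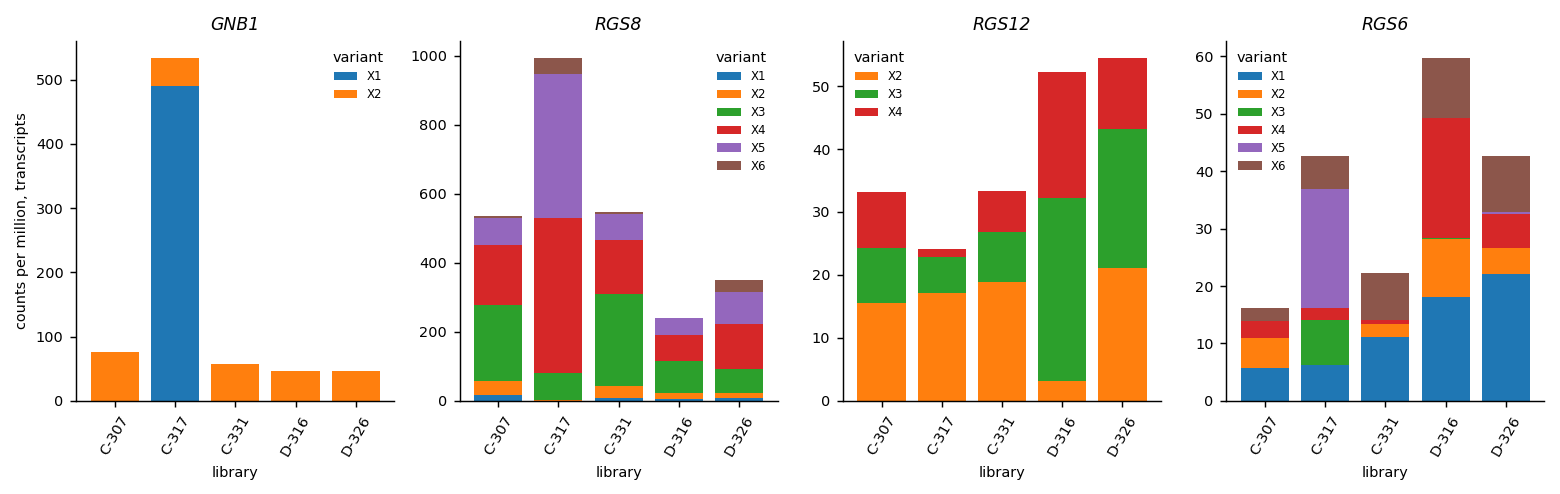
CPM of the transcript variants of GNB1, RGS8, RGS12 and RGS6 in each library, stacked, with C for Control and D for Deprivated. GNB1 variant X1 appeared in Control-317 alone at 490 CPM, and RGS12 variant X3 was at 29.1 and 22.1 CPM in the deprived libraries against 5.73 to 8.78 CPM in the control libraries.

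At the level of transcripts, 70 of the 101 member transcripts were tested and 19 were at 0 in every library. None passed at an adjusted p of 0.05 by the quasi-likelihood test (0% of 33469 transcripts), and 6 had an unadjusted p under 0.05 (6.41% of all). DESeq2 called GNG3 X1 and RGS12 X3 (3.16% of all), and edgeR's exact test called 0 (1.39% of all). GNG3 X1 held 91.8% to 98.7% of the counts of its gene and had a log2 fold change of 1.23 (DESeq2 adjusted p = 0.000248).

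The remaining named transcripts were of RGS6 and RGS3. RGS6 X1 had 5.82, 6.30 and 11.1 CPM in the control and 18.1 and 22.1 CPM in the deprived libraries. RGS6 X4 had 2.96, 2.02 and 0.679 CPM against 20.8 and 5.93 CPM. Both were higher in the deprived libraries with no overlap, but the adjusted p was 0.651 and 0.648 by the quasi-likelihood test. The high level of RGS6 in Control-317 lay mostly in X5 and X3, which had 258 and 97.0 counts there (49.0% and 18.4% of the gene) and under 2 counts each in every other library. RGS3 X6 had a log2 fold change of -0.70 (adjusted p = 0.778 by the quasi-likelihood test).

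Taken over all 34 members, Control-317 was the highest library for 11 (30.5% of all genes) and the lowest for 15 (29.5%). It was thus at one end for 26 of 34, compared with 60% of all genes. For 6 members (GNB1, GNG10, RGS2, RGS7, RGS14 and RGS20) it lay beyond every other library by more than 1 on the log2 CPM scale, as it did for 8.73% of all genes. Leaving it out changed the sign of 4 members (GNAI3, RGS7, RGS10 and RGS20), and restricting the comparison to the left-titled libraries changed the sign of 11. With Control-317 and Deprivated-316 exchanged between the groups, 0 members passed the quasi-likelihood test (0% of all genes) and 0 passed DESeq2 (0.733%). There 5 had an unadjusted p under 0.05 (7.03% of all genes by the quasi-likelihood test), and 16 of 34 had the other sign.

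**Figure D5:**
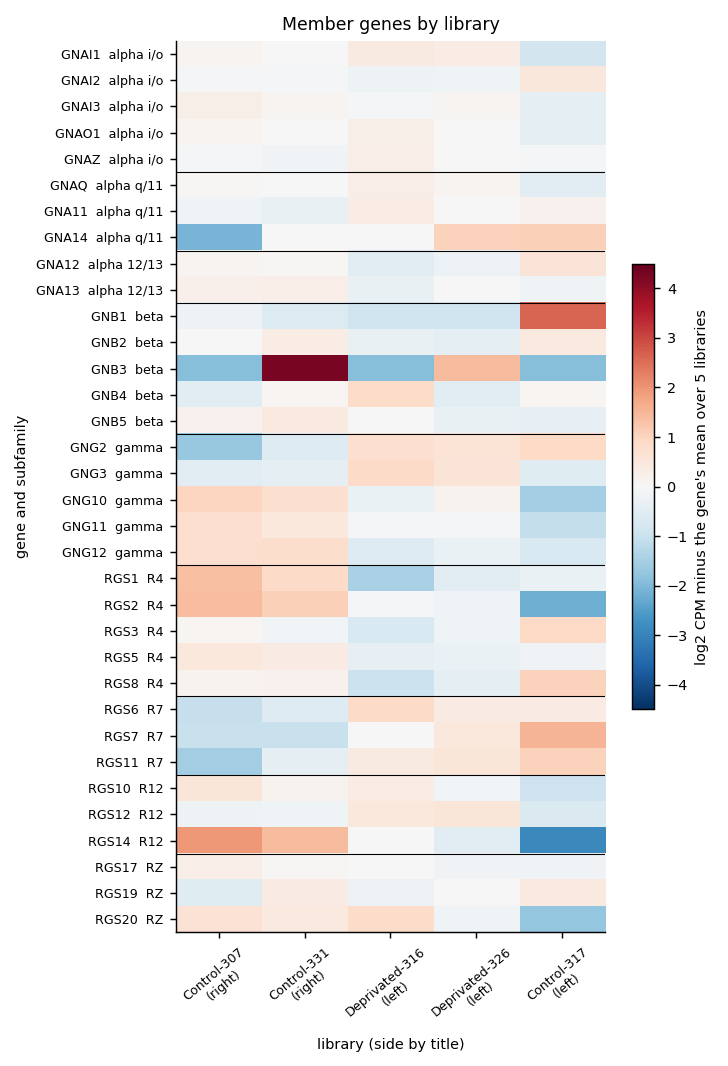
Log2 CPM of the 34 tested members minus each gene's mean over the 5 libraries, with the right-titled control libraries to the left, the deprived libraries in the middle and Control-317 to the right; red is above and blue below the mean. The alpha subunits other than GNA14 were pale throughout, RGS14, RGS2 and GNG10 went from red to blue from left to right, and RGS7 and RGS11 from blue to red.

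The enzymes and channels on which these G proteins act were followed in 9 lists with 67 genes, of which 57 were tested. By the quasi-likelihood test none passed, 6 had an unadjusted p under 0.05 (5 with a positive value), as did 9.76% of all genes, and the median log2 fold change was 0.02 against -0.06 over all genes. DESeq2 called 3 of them, ADCY2, ADCY9 and PDE1A, all higher in the deprived libraries, and 2.21% of all genes.

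Of the 9 adenylyl cyclases, ADCY2, which beta and gamma subunits stimulate, had 33.8, 52.1 and 39.9 CPM in the control and 111 and 85.0 CPM in the deprived libraries. ADCY9 had 5.69, 7.44 and 5.45 CPM against 17.3 and 15.0 CPM. Their log2 fold changes were 1.22 and 1.38 (DESeq2 adjusted p = 0.0172 and 0.0239), and 1.41 and 1.535 without Control-317 (adjusted p = 0.0230 and 0.0276 by the quasi-likelihood test). ADCY5, the main cyclase of striatal neurons, had the order of RGS14, at 530, 163 and 511 CPM in the control and 267 and 228 CPM in the deprived libraries. It was picked out, as was PDE10A, after its values were seen.

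Among the phosphodiesterases, which break down cyclic nucleotides, PDE1A had 10.04, 5.76 and 11.6 CPM in the control and 85.6 and 49.1 CPM in the deprived libraries. Every control library was far below the deprived ones. Its log2 fold change was 2.88 (SE 0.40, adjusted p = 0.249 by the quasi-likelihood test and 6.37e-07 by DESeq2), and 2.64 without Control-317 (adjusted p = 0.0199). In the exchanged division, ADCY2, ADCY9 and PDE1A were at 0.16, 0.24 and -0.38. The cortical and hippocampal markers also had a higher sum in both deprived libraries. Their part in the results for ADCY2, ADCY9 and PDE1A was not tested. PDE4A was at 1.72 (adjusted p = 0.414 by the quasi-likelihood test), and at 1.40 without Control-317 (adjusted p = 0.0591). PDE10A, abundant in the striatum, had 3867, 190 and 3456 CPM in the control and 1017 and 906 CPM in the deprived libraries, again the order of RGS14. Its log2 fold change was -1.38 with all libraries (adjusted p = 0.737 by the quasi-likelihood test) and -1.93 without Control-317 (adjusted p = 0.0145). In the left-titled libraries PDE10A went the other way, with a fold change, deprived over control, of 5.08.

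The GIRK potassium channels, which beta and gamma subunits open, had the order of GNG2. KCNJ3 had 19.7, 223 and 32.4 CPM in the control and 176 and 222 CPM in the deprived libraries, and KCNJ6 had 8.59, 94.4 and 9.95 CPM against 88.2 and 80.7 CPM. Control-317 lay with the deprived libraries, and the right-titled control libraries were far below. With all libraries the log2 fold changes were 1.12 and 1.16 (adjusted p = 0.762 and 0.764 by the quasi-likelihood test). Without Control-317 both rose, by 2.93 and 3.19 on the log2 scale (adjusted p = 0.0166 and 0.0145). In the left-titled libraries neither rose, with fold changes, deprived over control, of 0.896 and 0.899. The sum of the relay neuron markers was likewise lowest in the right-titled control libraries, and their part in the KCNJ3 and KCNJ6 results was not tested.

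The remaining lists held smaller differences with all libraries. Of the 4 phospholipase C beta genes none had an unadjusted p under 0.05, and PLCB3 and PLCB2 were at -0.40 and -0.58 on the log2 scale (adjusted p = 0.590 and 0.642, quasi-likelihood test). The receptor kinases and arrestins, which switch off active receptors, gave 0.64 for ARRB2 and 0.46 for GRK6 (adjusted p = 0.544 and 0.653). GPSM2 and GPSM3, GoLoco proteins that bind inactive Gi, were at -0.58 and -0.90 (adjusted p = 0.512 and 0.552), and the protein kinase A subunit PRKAR2A was at 0.84 (adjusted p = 0.489). Without Control-317, ADRBK1, ADRBK2 and GPSM1 were at 1.25, 0.83 and 1.12 (adjusted p = 0.0176, 0.0452 and 0.0479). RIC8B was at -1.31 there (adjusted p = 0.0166), where 10.1% of all genes passed. In the left-titled libraries the fold changes, deprived over control, were 0.948, 0.972, 1.06 and 1.59 for these genes in turn. ADRBK1, ADRBK2, GPSM1 and RIC8B were picked out after their values were seen. All p-values in this paragraph are from the quasi-likelihood test.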

How the data were processed

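The dLGN of 5 monkeys was sequenced, 1 library per animal. The authors filtered reads with fastp 0.18.0 and made estimated counts and FPKM per RefSeq transcript with StringTie 1.3.4 on Macaca_fascicularis_5.0, and deposited both. The paper names HISAT2 as aligner, whereas the submitters' processing notes list Bowtie2 2.2.8. Variants, overlapping genes and near-identical copies share reads, and strand is not stated, so the division of reads between them is uncertain.

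Estimated counts were summed per symbol and rounded. TMM factors, edgeR 4.0.16's low-count filter and its quasi-likelihood test (R 4.3.3) were applied to all genes and, separately, to all transcripts, with Benjamini-Hochberg adjustment and a threshold of 0.05. CPM are scaled to TMM-normalized totals, log2 CPM used a prior count of 2, and standard errors are the log2 fold change over the root of F. Where Control-317 is left out, or the left-titled libraries are taken alone, the same test was run unless DESeq2 is named. P-values set the difference between the groups against the spread between the libraries within a group, each from its own animal. Among the control libraries that spread includes the differences in titled side and in marker levels described above.

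Alternatives comprised DESeq2 1.42.0, the exact test of edgeR, and limma 3.58.1 with log2(FPKM + 1) or log2(FPKM + 0.1) for genes with a mean FPKM of at least 1 in a group, other size factors, no filter, leaving out each library, the left-titled libraries alone, and Control-317 exchanged with Deprivated-316, the division that the count means in the paper's tables follow. DESeq2 with that exchange and DESeq2 without Control-317 were added after seeing the data. Each test was run on simulated counts with the same mean of a gene for every library of a group, limma there on CPM. No simulated library stood apart over many genes as Control-317 did, so the simulation cannot show how the tests handle that. The marker lists were described by their summed CPM, by counts of their genes and by single markers, with no test of a list, and all 12 were examined: those of astrocytes, oligodendrocytes and their precursors, GABAergic interneurons, choroid plexus, cerebellar and retinal cells are given in the closing section.

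The members, the lists and the rule for named genes were chosen with earlier results of these data known. The rule named members with an unadjusted p under 0.05, or no overlap with a log2 fold change of at least 1 in size, or a DESeq2 adjusted p under 0.05, or an adjusted p under 0.05 without Control-317, the top 3 by mean FPKM of each family, transcripts with an unadjusted p under 0.05 or at 0 throughout one group with at least 200 counts on average in the other, and the 2 smallest p-values of each pathway list. The single genes of 1 of these lists are not reported here. GNB1 X1 was named besides these after its values were seen. Sequences and coordinates are not given, since the gene table at hand is of another assembly.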

Additional observations from a re-analysis of the deposited data

How the results depend on the processing

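The count of members past the threshold was 0 with the quasi-likelihood test, 1 with the exact test and 1 with DESeq2. Leaving out 1 library at a time gave 0 to 8, with 8 only where Control-317 was left out, and DESeq2 without it gave 12. For the pathway lists the counts were 0, 2 with the exact test, 3 with DESeq2 and 0 to 14 when 1 library was left out, 14 being without Control-317 (10.1% of all genes were called there), 19 with DESeq2 without it (15.1%), and 1 with DESeq2 on the exchanged division. DESeq2 called 2 member transcripts.

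With Control-317 and Deprivated-316 exchanged, the log2 fold change turned to 0.30 for GNA12, 2.28 for GNB1, 0.0408 for GNB2, 0.62 for RGS8, 1.70 for RGS7, -0.0206 for GNG3 X1, -0.13 for RGS12 X3, 0.0055 for RGS3 X6 and -1.03 for RGS6 X4. With DESeq2 on that division it was 0.29 for GNA12, 2.28 for GNB1, 0.0369 for GNB2, -0.0053 for GNG3, 0.62 for RGS8, 1.68 for RGS7 and -0.0049 for RGS12. In the left-titled libraries, where Control-317 is the lone control and is assumed to vary like the deprived libraries, it was 0.26 for GNG12, 2.13 for RGS2, 2.71 for RGS14, -0.21 for GNG2 and 1.50 for GNG10. RGS7 also turned with limma (0.22 and 0.29) and with DESeq2 without Control-317 (1.26). With 1 library left out it ran from -0.52 to 1.25, turning without Deprivated-316 (0.09) and Control-317 (1.25). The cause of these turns was not tested, other than that each exchanged or left-out library changes the samples compared. Of 285 single values under the alternatives, 237 kept their direction and side of the threshold, 22 passed it in the same direction and 26 turned, of which RGS7 without Control-317 also passed it by both tests.

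No paired analysis was possible because each library comes from its own animal and the groups share no animal number. The size of difference that 3 against 2 libraries can show was not worked out for single members, GNA14, GNB3 and RGS20 had few counts in most libraries, and every gene total rests on StringTie's estimated counts.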

Other observations

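The marker lists of cell types not named above gave these sums. Oligodendrocyte markers (9 genes, all with a negative log2 fold change and none at 0 throughout) summed to 15414, 11655 and 14709 CPM in the control and to 6235 and 10636 CPM in the deprived libraries, in the order used above. Astrocyte markers were nearly level, at 3686, 4187 and 3443 CPM in the control and 3747 and 3727 CPM in the deprived libraries. Choroid plexus and ependyma markers reached 1119 CPM in Control-317, against 85.2 and 133 CPM in the other control and 21.9 and 63.1 CPM in the deprived libraries. GABAergic interneuron markers summed to 485, 243 and 594 CPM in the control and 464 and 399 CPM in the deprived libraries, with PVALB at 0 throughout. Markers of oligodendrocyte precursors (415, 577 and 417 against 329 and 421 CPM, OLIG1 at 0 throughout), cerebellar neurons (49.5, 59.2 and 31.7 against 87.3 and 86.4 CPM) and photoreceptors and rod bipolar cells (4.14, 0.880 and 6.12 against 2.82 and 2.46 CPM, GRM6 at 0 throughout) completed the lists.

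Several members are neighbours in RefSeq's order of protein-coding genes in the T2T-MFA8v1.1 assembly. RGS16 lies next to RGS8, RGS4 next to RGS5, and RGS13 between RGS1 and RGS2, all on chromosome 1, and GNA14 lies next to GNAQ on chromosome 15. In each of these neighbourhoods 1 gene was listed at 0 or near it in every library (RGS16, RGS4, RGS13 and GNA14). A neighbour was above it, at 242 to 985 CPM for RGS8, 62.0 to 113 CPM for RGS5 and 216 to 368 CPM for GNAQ. RGS2 was at 8.24 to 101 CPM, and RGS1, on the other side of RGS13, was low too, at 0.670 to 6.002 CPM. RGS16, RGS4 and RGS13 are among the genes listed at 0 throughout. Whether the assignment of reads gave these 0 values was not tested.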
